A study of Mus musculus with 12 samples.

Results

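The proximal kinases and adaptors of the T cell receptor (TCR) are the proteins that turn an engaged receptor into a signal at the membrane. The 9 genes described here are the kinases Lck, Fyn, Zap70 and Csk, the phosphatase Ptprc, the adaptors Lat and Lcp2, the TCR signalling regulator Themis, and the phospholipase Plcg1. They were taken by name from a table of 45669 rows, after Ensembl identifiers had been matched to symbols, and each was found as a single row.

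Both genotypes came from 12-week-old C57BL6 mice. Anaef mice were homozygous for Anaef, a missense allele of Rasgrp1 that every cell of the animal carries, and WT mice were WT/WT at that gene. CD4+ T cells were purified from lymph nodes by bead depletion of other cells, and no stimulation was named in the labels. Total RNA was read from 4 Anaef libraries (replicates 5 to 8) and 4 WT libraries (replicates 1 to 4). Ribosome-protected fragments (RPF), short pieces of mRNA covered by a translating ribosome during nuclease digestion, came from 2 Anaef pools (3B and 4B) and 2 WT pools (1B and 2B), each made by joining 2 samples. Which animals entered a library or a pool is not stated, and the spread behind each p-value is that between libraries, part of which may be technical.

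When a TCR binds its ligand, Lck phosphorylates the CD3 and zeta chains and then Zap70, which docks on them. Zap70 in turn phosphorylates Lat and Lcp2 (SLP-76), and these scaffolds bring in Plcg1, which cleaves a membrane lipid into a calcium-releasing messenger and diacylglycerol. Diacylglycerol recruits Rasgrp1, the protein altered by Anaef, so the genes described here act upstream of it. Csk holds Lck and Fyn in check by phosphorylating their inhibitory tyrosine, and Ptprc (CD45) removes that phosphate.

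The 9 transcripts were read deeply in every library, and none passed the genotype test in total RNA or in RPF. Fyn RPF, 1.53-fold lower in Anaef, was the member with the smallest p. It passed only with DESeq2 and with edgeR without a filter on low counts, and in no other setting. Those settings called 197 of 9710 and 514 of 14724 tested genes. The members differed far more in how many RPF they gave per total RNA read. Zap70 lay 8.21-fold above parity, the point of equal scaled counts in both assays, in Anaef and 9.62-fold in WT, whereas Plcg1 lay 3.90-fold below it in Anaef and 3.44-fold in WT. Against tested protein-coding genes, Zap70 lay above the upper quartile in both genotypes, but Plcg1 lay between the lower and upper quartiles.

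The start codons of the 3 members with the most RPF counts per total RNA count (Zap70, Csk and Lck) and of the 3 with the fewest (Lat, Themis and Plcg1) are shown because the ribosome begins there. Each line gives the 10 bases before the start codon, the start codon in capitals and the 7 bases after it, 5′ to 3′ in the transcript with the longest coding sequence, from the GENCODE M21 transcripts of GRCm38.
Zap70: gggtccagcgATGcccgatc
Csk: accgcagaagATGtcggcaa
Lck: tctgcggccaATGggggcct
Lat: tgctctgcagATGgaagcag
Themis: agacacaacaATGgctttat
Plcg1: tcgctgcagcATGgcgggcg
An A or a G at the third base before the start codon together with a G right after it (ANNATGG or GNNATGG, read on the transcript strand) is the core of the context known to favour initiation in mammals. Of the 9 members 4 held it, namely Fyn, Lcp2, Plcg1 and Themis, against 41.0% of 20145 genes with such a window. None of the 3 with the most RPF per total RNA read held both letters, and Themis and Plcg1 among the 3 with the fewest did. Zap70 and Csk held the A or G before the start codon but no G after it. Lck and Lat held the G after it but a C at the third base before. The 3 were ranked by counts, and per kilobase Lck stood below Ptprc and Lcp2 in both genotypes. A link between these letters and the ratio was not tested. A match is a description of the letters and no measure of initiation.

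Depth was 18580747 to 39467754 counts in Anaef total RNA and 15326842 to 40046317 in WT total RNA, and 2868943 to 3464868 in Anaef RPF and 4044330 to 7009342 in WT RPF. Together the members took 0.368% to 0.472% of the counts in Anaef total RNA, 0.278% to 0.456% in WT total RNA, 0.704% to 0.758% in Anaef RPF and 0.683% to 0.707% in WT RPF. Ptprc alone gave most of these member counts in every group. The smallest count of a member was 203 in an RPF pool, for Themis in Anaef 4B, and 232 in a total RNA library, for Zap70 in WT replicate 3. All 7 CD4 T cell markers examined, Cd4 and the CD3 chains among them, were read in every group, with summed levels of 2753 to 4530 CPM (counts scaled to a common library size) in Anaef total RNA and 2513 to 2816 CPM in WT total RNA. Markers of other cells were present too. The 8 B cell markers summed to 26.8 to 87.6 CPM in Anaef total RNA and 67.6 to 133 CPM in WT, and the 6 plasma cell markers to 376 to 790 CPM in Anaef and 1197 to 5336 CPM in WT. The 7 markers of myeloid and dendritic cells summed to 13.4 to 19.98 CPM in Anaef total RNA and 22.7 to 24.9 CPM in WT. In RPF the B cell markers summed to 117 and 180 CPM in Anaef and 277 and 180 CPM in WT, and the myeloid and dendritic ones to 16.9 and 32.8 CPM in Anaef and 32.6 and 27.7 CPM in WT. The plasma cell markers summed to 6667 and 2283 CPM in the Anaef pools 3B and 4B and 22312 and 11208 CPM in the WT pools 1B and 2B. In bulk samples such as these, fewer cells of a type and less RNA per cell cannot be told apart.

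Anaef changes the protein and not the presence of the transcript, so the level of Rasgrp1 is no check of the labels. It had 460 to 683 CPM in Anaef total RNA and 453 to 610 CPM in WT, and 124 and 104 CPM in the Anaef RPF pools, against 150 and 173 CPM in the WT pools (log2 fold change in RPF -0.50, SE 0.16, edgeR adjusted p = 0.363).

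The members are spread over the genome, at positions given here for GRCm38. Lck (ENSMUSG00000000409) lies on the minus strand of chromosome 4 from 129548344 to 129573641 and Fyn (ENSMUSG00000019843) on the plus strand of chromosome 10 from 39368855 to 39565381. Themis (ENSMUSG00000049109) shares chromosome 10, from 28668360 to 28883818 on the plus strand. Zap70 (ENSMUSG00000026117) is on the plus strand of chromosome 1 from 36761798 to 36782818, and Ptprc (ENSMUSG00000026395) on the minus strand of that chromosome from 138062861 to 138175708. Csk (ENSMUSG00000032312) is on the minus strand of chromosome 9 from 57626646 to 57653631 and Lat (ENSMUSG00000030742) on the minus strand of chromosome 7 from 126363824 to 126369570. Lcp2 (ENSMUSG00000002699) is on the plus strand of chromosome 11 from 34046920 to 34092295, and Plcg1 (ENSMUSG00000016933) on the plus strand of chromosome 2 from 160731300 to 160775760. Counts were taken over whole genes, so splice isoforms such as those of Ptprc and the alternative promoters of Lck were not separated.

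The members spanned a wide range of levels, which are compared here as CPM per kilobase, over the union of exons for total RNA and over the longest coding sequence for RPF. In total RNA the order in Anaef was Ptprc at 170 ± 29.8, Lat at 94.2 ± 23.6, Lcp2 at 71.6 ± 6.99 and Lck at 60.9 ± 8.35 CPM per kb, followed by Fyn at 28.8 ± 5.49, Plcg1 at 22.2 ± 2.50, Themis at 13.3 ± 1.65, Zap70 at 7.41 ± 1.54 and Csk at 6.80 ± 1.56 CPM per kb (SD, n = 4). The libraries of Lat and Lcp2, of Lcp2 and Lck, of Fyn and Plcg1, and of Zap70 and Csk overlapped, so these neighbours did not differ beyond their spread. The WT order was the same at the top, with Ptprc at 146 ± 20.5 CPM per kb, and ended with Themis at 10.1 ± 0.479, Csk at 7.98 ± 1.37 and Zap70 at 6.45 ± 0.730 CPM per kb (SD, n = 4). The WT libraries of Themis and Csk overlapped, and so did those of Csk and Zap70. Ptprc encodes a very abundant glycoprotein of the T cell surface and is spliced into several isoforms. Its level depended on the length used, since its exon union of 18313 bases is much longer than its longest transcript of 5740 bases. With longest transcripts it stood at 543 CPM per kb in Anaef and 466 in WT, and the order changed only in WT, where Plcg1 then passed Fyn.

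In RPF the order changed. Ptprc led again, at 1396 ± 78.2 CPM per kb in Anaef and 1284 ± 156 in WT, followed by Lcp2 at 343 ± 11.1 in Anaef and 335 ± 0.487 in WT, and by Lck at 266 ± 3.12 in Anaef and 292 ± 33.9 in WT (SD, n = 2 each). Zap70, at or near the bottom in total RNA, stood in the middle of the order in RPF, at 166 ± 18.1 CPM per kb in Anaef and 165 ± 18.0 in WT. Plcg1 was last in both genotypes, at 19.2 ± 1.39 CPM per kb in Anaef and 22.4 ± 2.02 in WT. The pools of Csk and Fyn overlapped in both genotypes, and those of every other pair of neighbours did not.

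**Figure D1:**
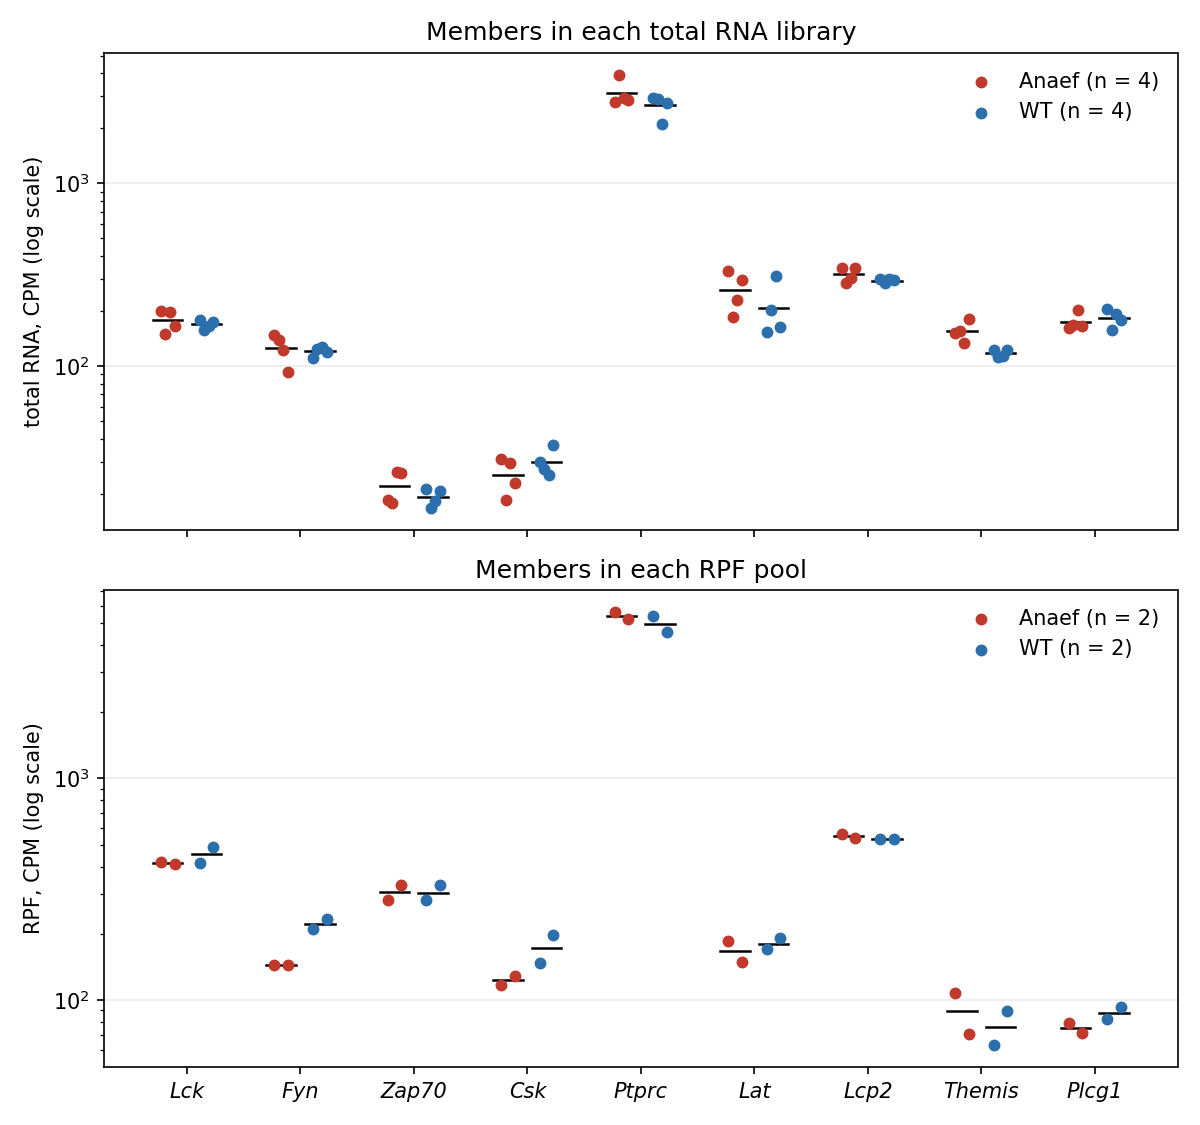
Levels of the 9 members as CPM on a log axis, with each point 1 library and each bar the group mean, in 8 total RNA libraries (top) and 4 RPF pools (bottom), Anaef in red left of WT in blue. Zap70 and Csk sit lowest in total RNA, while in RPF Themis and Plcg1 do, and the 2 Anaef pools of Fyn lie below both WT pools.

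The total RNA comparison asks whether T cells carrying the altered exchange factor keep the upstream signalling machinery at the same transcript level. No member passed at an adjusted p of 0.05 by edgeR's quasi-likelihood test, where 0.0224% of 17876 tested genes did, and 1 of the 9 had an unadjusted p under 0.05, where 5.62% of all tested genes did. The log2 fold changes of Anaef over WT ran from -0.23 to 0.40, with 7 of 9 above 0 and a median of 0.12, against a median of 0.01 over all genes tested. DESeq2 called 120 genes in this comparison, 0.671% of those tested, and no member.

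Among the kinases, Lck, which starts the cascade, had 199, 149, 198 and 167 CPM in Anaef replicates 5 to 8, against 178, 157, 165 and 175 CPM in WT replicates 1 to 4. The Anaef libraries lay on both sides of the WT range, and the log2 fold change was 0.08 (SE 0.14, edgeR adjusted p = 0.985). Fyn, the second Src-family kinase of T cells, had 148, 138, 123 and 93.2 CPM in Anaef, against 111, 124, 126 and 119 CPM in WT. Its Anaef libraries were spread more widely than the WT ones and enclosed their range, and its log2 fold change of 0.06 (SE 0.16, edgeR adjusted p = 0.989) turned to -0.03 without Anaef replicate 5.

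Zap70, the kinase that binds the phosphorylated receptor chains, had 18.6, 17.8, 26.3 and 26.1 CPM in Anaef, against 21.4, 16.7, 18.4 and 20.8 CPM in WT. A pair of Anaef libraries was above every WT library and the other pair was within the WT range (log2 fold change 0.20, SE 0.21, edgeR adjusted p = 0.975). Csk, the inhibitor of the Src-family kinases, had 30.9, 18.4, 29.4 and 22.9 CPM in Anaef, against 29.8, 27.2, 25.3 and 37.0 CPM in WT. The groups overlapped, at a log2 fold change of -0.23 (SE 0.22, edgeR adjusted p = 0.971). Ptprc, which opposes Csk, had 2780, 3935, 2916 and 2846 CPM in Anaef, against 2934, 2896, 2125 and 2750 CPM in WT. Anaef replicate 6 was far above the other libraries and WT replicate 3 far below them. Its log2 fold change of 0.22 (SE 0.17, edgeR adjusted p = 0.942) shrank to 0.00180 without those 2 libraries, an alternative chosen after seeing the data.

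Of the adaptors, Lat, the membrane scaffold that Zap70 phosphorylates, varied most among libraries. It had 331, 186, 229 and 296 CPM in Anaef, against 154, 202, 310 and 165 CPM in WT. WT replicate 3 reached the Anaef range and the groups overlapped, at a log2 fold change of 0.33 (SE 0.25, edgeR adjusted p = 0.945). That value was 0.19 without Anaef replicate 5, 0.59 without WT replicate 3 and 0.73 without both WT replicate 3 and Anaef replicate 6, the pair chosen after seeing the data, and no alternative called it. Lcp2, the cytosolic scaffold that works with Lat, varied little, with 345, 284, 303 and 346 CPM in Anaef, against 299, 284, 299 and 294 CPM in WT (log2 fold change 0.12, SE 0.12, edgeR adjusted p = 0.975). Plcg1 had 161, 167, 203 and 165 CPM in Anaef, against 206, 158, 192 and 178 CPM in WT, and its groups overlapped (log2 fold change -0.07, SE 0.14, edgeR adjusted p = 0.986).

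Themis, a T-lineage protein known above all for its need in thymocyte selection, was the member whose total RNA groups did not overlap. It had 152, 156, 133 and 180 CPM in Anaef, against 123, 112, 114 and 123 CPM in WT, so that the lowest Anaef library stood above the highest WT library. The log2 fold change was 0.40 (SE 0.13), a 1.32-fold higher level, with an unadjusted p of 0.0134 and an adjusted p of 0.816 by edgeR. The adjusted p ran from 0.239 to 1.00 over 16 alternatives, none of which called it. Of all tested genes 1.58% lay higher in Anaef with no overlap. The 7 CD4 T cell markers moved the same way, all with log2 fold changes above 0, a median of 0.35 and no overlap for Cd3e and Cd28. The part of the CD4 markers in the Themis value was not tested.

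The RPF comparison puts the same question to the fragments held by ribosomes. No member passed, where 0% of 9710 tested genes did by edgeR, and 2 of 9 had an unadjusted p under 0.05, where 11.9% of tested genes did. By DESeq2, which called 2.03% of those genes, Fyn passed and the other 8 did not. The median log2 fold change of the members was -0.11, with 5 of 9 below 0, against 0.01 over all genes tested. With 2 pools a group, groups without overlap are common, at 44.8% of the genes tested and 4 of the 9 members.

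Fyn had 144 and 145 CPM in the Anaef pools 3B and 4B, against 209 and 232 CPM in the WT pools 1B and 2B. Both Anaef pools were below both WT pools, at a log2 fold change of -0.61 (SE 0.14, unadjusted p = 0.00367, edgeR adjusted p = 0.344). Fyn passed in 2 of 11 alternatives, at an adjusted p of 0.00413 by DESeq2 and 0.0342 by edgeR with no filter on low counts, and the range over all of them was 0.00413 to 1.00. Its log2 fold change stayed between -0.70 and -0.54. Among protein-coding genes tested, 6.05% had a lower one.

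Csk had 117 and 129 CPM in the Anaef pools, against 148 and 197 CPM in the WT pools. The groups did not overlap, at a log2 fold change of -0.48 (SE 0.18, unadjusted p = 0.0342, edgeR adjusted p = 0.390), and no alternative called it. The value was -0.27 without WT pool 2B and -0.69 without WT pool 1B, with either left-out pool leaving a single WT pool. At an unadjusted p under 0.05, Csk and Fyn were lower in the Anaef pools, as were 6.93% of all tested genes. Lck, which Csk also controls, had 419 and 412 CPM in Anaef and 417 and 492 CPM in WT, with overlap (log2 fold change -0.13, SE 0.14, edgeR adjusted p = 0.749). Zap70 was level, with 283 and 331 CPM in Anaef and 282 and 329 CPM in WT (log2 fold change 0.01, SE 0.15, edgeR adjusted p = 0.990). The interval of 2 SE around the Zap70 value reached from -0.30 to 0.31, a rough range with 2 pools a group. It is no limit of detection, since Fyn and Csk, with larger changes, did not pass in the main fit.

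Ptprc had 5631 and 5202 CPM in the Anaef pools and 5407 and 4553 CPM in the WT pools, with overlap (log2 fold change 0.12, SE 0.17, edgeR adjusted p = 0.816). Lcp2 had 562 and 537 CPM in Anaef, against 535 and 534 CPM in WT, which left no overlap but a log2 fold change of only 0.04 (SE 0.12, edgeR adjusted p = 0.934). Lat had 184 and 149 CPM in Anaef and 170 and 190 CPM in WT, with overlap (log2 fold change -0.11, SE 0.16, edgeR adjusted p = 0.833). For the scaffolds the footprint levels of the 2 genotypes were thus within the spread of the pools or close to it. Plcg1 had 78.9 and 71.2 CPM in Anaef, below 82.1 and 93.2 CPM in WT (log2 fold change -0.22, SE 0.16, edgeR adjusted p = 0.630). Themis, higher in Anaef total RNA, had 108 and 70.8 CPM in the Anaef pools and 62.7 and 89.3 CPM in the WT pools. These overlapped, and its log2 fold change of 0.24 (SE 0.26, edgeR adjusted p = 0.758) turned to -0.10 without pool 3B.

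**Figure D2:**
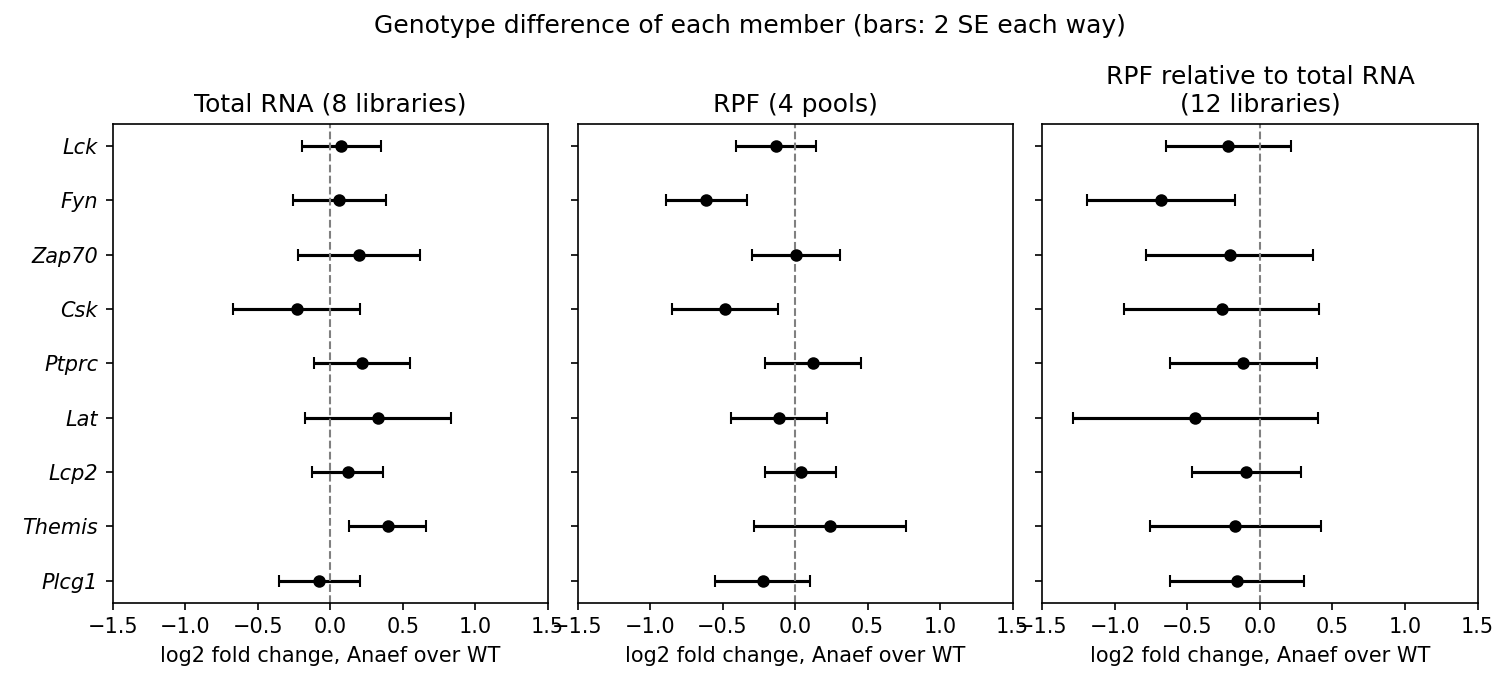
Log2 fold changes of Anaef over WT for each member in total RNA, in RPF and in RPF relative to total RNA, with bars of 2 SE each way. Themis in total RNA, Fyn and Csk in RPF and Fyn in the ratio have bars clear of 0 before adjustment, and all 9 ratios lie left of 0.

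The third genotype comparison asks whether RPF changed beyond the change in total RNA, tested as a genotype-by-assay interaction in a model of 12 libraries. No member passed, nor did any of the 19031 genes tested by edgeR (0%), of which 3.34% had an unadjusted p under 0.05, as did 1 of the 9 members, while DESeq2 called 10 genes (0.0525%) and no member. All 9 members had a value below 0, from -0.69 to -0.09 on the log2 scale with a median of -0.21, where 49% of all tested genes and 50.8% of the protein-coding ones were below 0. The 7 CD4 markers were below 0 as well, with a median of -0.23. These values share the same 12 libraries, so the members are not independent readings of a direction. The value of Ptprc turned to 0.09 without WT replicate 3 and Anaef replicate 6, and that of Themis to 0.08 without pool 4B and 0.09 without pool 2B. DESeq2 and limma-voom moved the median of all genes in this comparison by 0.30 and 0.34, and every member was below 0 with both.

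Fyn had the lowest ratio change of the 9, at -0.69 (SE 0.26, unadjusted p = 0.0197, edgeR adjusted p = 1.00), and 14.5% of protein-coding genes had a lower one. Lat followed at -0.45 (SE 0.42), where the spread of its total RNA libraries entered the error, and stood at -0.87 without WT replicate 3 and Anaef replicate 6. Rasgrp1 itself had a change of -0.72 (SE 0.27, edgeR adjusted p = 1.00). The other members lay between -0.26 for Csk, which was at -0.06 without WT pool 2B, and -0.09 for Lcp2.

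Within each genotype, the ratio of RPF to total RNA differed strongly among the members. It compares libraries made with different kits, so it is read against other genes and not as an absolute rate, and kit and assay cannot be told apart. By edgeR 6 of 9 members passed in Anaef, where 67.1% of 18032 tested genes did, and 6 of 9 passed in WT, where 74% of 17775 did. In each genotype 3 members passed higher, where 16.4% of genes did in Anaef and 19.6% in WT, and 3 passed lower, where 50.8% did in Anaef and 54.4% in WT. The share of members called in either direction was near that of all genes. The median over all tested genes was -1.79 in Anaef and -1.62 in WT on the log2 scale, with many noncoding genes at the low end, and over protein-coding genes it was -0.48 in Anaef and -0.36 in WT.

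Zap70 was the highest of the members, with a log2 ratio of 3.04 in Anaef (SE 0.23, edgeR adjusted p = 1.6e-05) and 3.27 in WT (SE 0.17, edgeR adjusted p = 5e-06). It exceeded 95.4% of tested protein-coding genes in Anaef and 96.5% in WT. It kept its call in all 13 alternatives of each genotype, at log2 ratios of 2.93 to 3.17 in Anaef and 3.15 to 3.37 in WT. Csk came next, at 1.52 in Anaef (SE 0.25, edgeR adjusted p = 0.000961) and 1.81 in WT (SE 0.21, edgeR adjusted p = 0.00013), and held in all alternatives too. Lck was at 0.47 in Anaef (SE 0.18, edgeR adjusted p = 0.0482) and 0.71 in WT (SE 0.14, edgeR adjusted p = 0.00244). Its WT call held in all 13 alternatives, and its Anaef call was lost in 7 of 13, with adjusted p up to 0.202.

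Lcp2 lay at parity, at 0.03 in Anaef and 0.15 in WT, and so did Ptprc, at 0.05 in Anaef and 0.18 in WT, with no call for either by edgeR (adjusted p of 0.873 and 0.842 in Anaef and 0.323 and 0.374 in WT). Fyn was at -0.55 in Anaef (SE 0.22, edgeR adjusted p = 0.0572) and 0.16 in WT (SE 0.15, edgeR adjusted p = 0.348). Its Anaef ratio passed in 2 of 13 alternatives. Whether the genotypes differ in it is the interaction given above, which did not pass.

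Lat, Themis and Plcg1 fell below parity in both genotypes. Lat was at -1.40 in Anaef (SE 0.27, edgeR adjusted p = 0.00236) and -0.93 in WT (SE 0.31, edgeR adjusted p = 0.0255), and its WT call was lost in 3 of 13 alternatives. Themis was at -1.54 in Anaef (SE 0.24, edgeR adjusted p = 0.00075) and -1.35 in WT (SE 0.19, edgeR adjusted p = 0.000417). Plcg1, the enzyme at the end of the cascade, was lowest at -1.96 in Anaef (SE 0.20, edgeR adjusted p = 7.5e-05) and -1.78 in WT (SE 0.18, edgeR adjusted p = 7.6e-05). By counts, Zap70, Csk and Lck thus had the highest ratios of the 9 in both genotypes, and Lat, Themis and Plcg1 the lowest. The lower and upper quartiles of tested protein-coding genes were -2.33 and 0.933 in Anaef and -2.20 and 0.948 in WT. Only Zap70 and Csk lay above the upper quartile, and every other member lay between the quartiles in both genotypes. The low ratios of Lat, Themis and Plcg1 were thus low among the members and not extreme among coding genes. Per kilobase the order was partly another. Zap70 and Csk still led and Plcg1 and Lat were still lowest, but Ptprc followed them, with 8.20 times its total RNA level in Anaef and 8.79 times in WT, Lck stood at 4.38 in Anaef and 5.05 in WT, and Themis, at 3.53 in Anaef and 3.95 in WT, stood above Fyn in Anaef (3.11) and below it in WT (4.97).

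A count ratio of this kind also depends on how much of a transcript is coding, because RPF come from the coding sequence and total RNA reads from all exons. The coding sequence made up 82.6% of the longest transcript in Zap70, 71.4% in Lck and 49.1% in Csk, against 35.4% in Lat, 37.5% in Themis and 76.5% in Plcg1. Of the exon union, over which total RNA was scaled per kilobase, it made up 62.0% in Zap70, 53.3% in Lck and 36.1% in Csk, against 26.2% in Lat, 16.3% in Themis and 49.7% in Plcg1. The part of coding share in these ratios was not tested. Over their whole spans, Fyn, Zap70, Lcp2, Themis and Plcg1 overlap genes on the opposite strand, such as Zhx3 at Plcg1. Whether their exons overlap was not examined. No source used here states whether counting used strand, so reads of such pairs may not have been told apart.

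**Figure D3:**
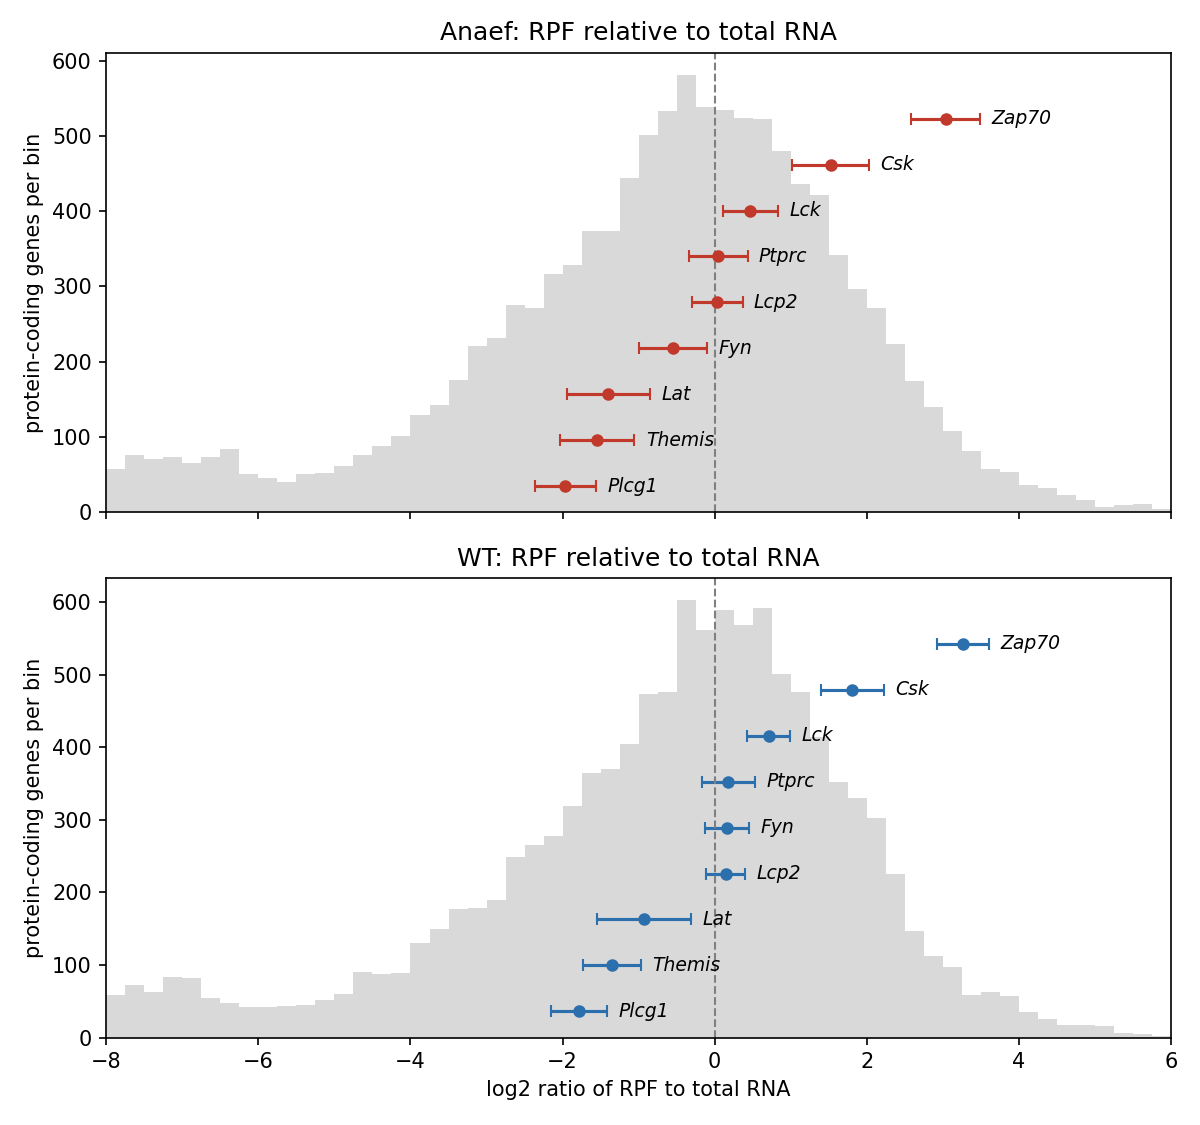
Log2 ratio of RPF to total RNA for each member, with bars of 2 SE each way, over the histogram of all tested protein-coding genes in grey (genes per bin of 0.25, drawn from -8 to 6), Anaef above WT. Zap70 lies in the right flank of the distribution in both genotypes, at 3.04 and 3.27, and Plcg1 left of its centre, at -1.96 and -1.78.

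Several members have a sister gene that does the same work in B cells or myeloid cells, and per kilobase the T cell gene dominated each pair. Zap70 made up 98.6% to 100% of Zap70 and Syk in Anaef total RNA and 89.8% to 97.4% in WT, and 98.7% and 99.9% in Anaef RPF and 96.6% and 98.6% in WT RPF. Over all libraries Lat made up 99.3% to 100% of Lat and Lat2, and Lcp2 97.0% to 99.8% of Lcp2 and Blnk. Themis made up 94.8% to 99.7% of Themis and Themis2 in Anaef total RNA and 92.0% to 96.9% in WT. Plcg1 dominated less in RPF, with 92.7% and 92.1% of Plcg1 and Plcg2 in the Anaef pools and 71.1% and 93.0% in the WT pools. The low WT value came from pool 1B, which had the highest B cell and plasma cell marker sums of the RPF pools (277 and 22312 CPM). Pool 2B, at 93.0%, had more plasma cell marker CPM (11208) than either Anaef pool (6667 and 2283). The part of other cells in this share was not tested.

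Within the 8 Src-family kinases, Lck and Fyn took nearly all reads. Lck made up 59.8% to 72.3% of the family in Anaef total RNA and 64.2% to 69.1% in WT, and Fyn 27.1% to 37.2% in Anaef and 29.0% to 34.0% in WT. In RPF the Lck share was 74.5% and 73.8% in the Anaef pools and 66.3% and 68.0% in the WT pools, and the Fyn share 24.8% and 25.1% in Anaef and 32.2% and 31.1% in WT. As the 2 shares sum to nearly the whole family, they restate the lower Fyn level of the Anaef pools in another form, and no test of them was run.

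**Figure D4:**
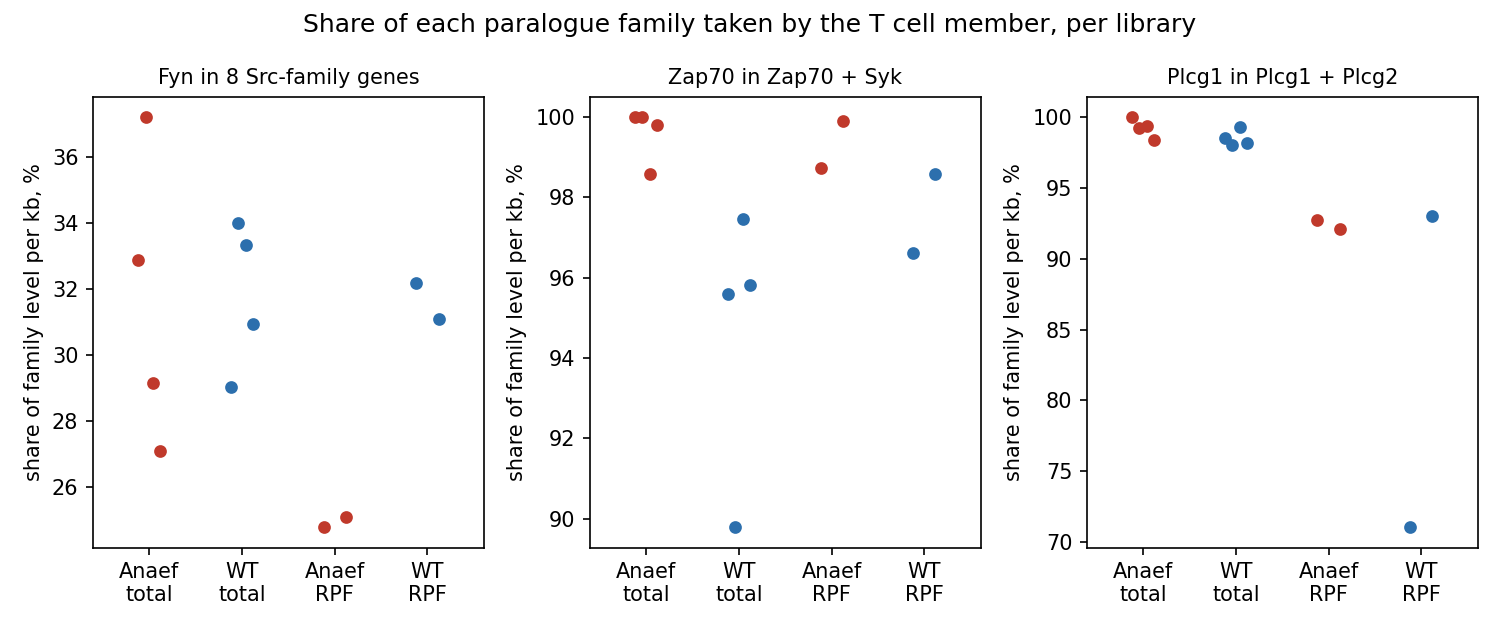
Share in percent of each family's summed CPM per kb taken by Fyn (of 8 Src-family genes), Zap70 (of Zap70 and Syk) and Plcg1 (of Plcg1 and Plcg2), each point 1 library, Anaef in red and WT in blue, with axes that do not start at 0. The Fyn share is 24.8% and 25.1% in Anaef RPF and 31.1% and 32.2% in WT RPF, and WT pool 1B stands apart for Plcg1.

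Of the 12 paralogues listed, 9 passed the filter on low counts in total RNA and 5 in RPF. Several passed mainly through their WT counts, so no direction is read from those that passed, and single genes are given by their counts. Syk, the kinase that replaces Zap70 in B cells, had 58 counts over the Anaef libraries and 479 over the WT libraries. Btk, the Tec kinase of the B cell receptor, had 17 counts in Anaef, all from replicate 7, and 160 in WT. WT replicate 3 had 0 CPM of Btk, so the groups overlapped. Blnk and Lyn, the paralogues with the highest mean over the 8 total RNA libraries, averaged 0.509 and 0.648 CPM per kb in Anaef and 0.967 and 0.493 in WT, close to Yes1 at 0.550 in Anaef and 0.590 in WT. In RPF, Btk had 11 counts in Anaef and 70 in WT, and Plcg2, the phospholipase of the B cell receptor, 38 in Anaef and 248 in WT. The WT pools were deeper, so these counts overstate the difference. Scaled for depth, Plcg2 had 6.02 and 5.93 CPM in the Anaef pools 3B and 4B, against 32.5 and 6.80 CPM in the WT pools 1B and 2B. Its higher WT level thus came mainly from pool 1B. Btk had at most 2.01 CPM in an Anaef pool, against 7.83 and 4.13 CPM in the WT pools. None of these paralogues passed adjustment. Of the marker sums given above, that of plasma cells was lower in Anaef without overlap in both assays. That of myeloid and dendritic cells was lower without overlap in total RNA and overlapped in RPF. The B cell sum overlapped in both, but its single markers leaned lower in Anaef total RNA. All 8 had log2 fold changes below 0 in total RNA (median -1.36), where 49.3% of tested genes did. In RPF 5 of the 8 passed the filter. A marker low in Anaef can pass it through the WT pools alone, so no direction is read from them. No B cell marker passed adjustment by edgeR. Anaef replicate 7, which held all the Btk counts of its group, had the highest B cell sum of the Anaef libraries, at 87.6 CPM. The part of these cells in the paralogue values was not tested.

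The other genes of the pathway were described from 3 lists: 6 Tec-family and other T cell kinases, 23 partner adaptors and scaffolds, and 16 inhibitory phosphatases and adaptors. None passed in total RNA or RPF by edgeR. In total RNA, 6 kinases, 21 adaptors and 16 inhibitors were tested, with medians of -0.04, 0.17 and 0.01, and in RPF 5, 21 and 16 were tested, with medians of -0.16, 0.03 and 0.04, against 0.01 over all genes in both assays.

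Among the kinases, Prkcq, the diacylglycerol-dependent PKC-theta, averaged 37.9 ± 2.42 CPM per kb in Anaef total RNA and 36.7 ± 1.13 in WT (SD, n = 4 each). Pdpk1, which activates many kinases of the AGC class, had the smallest p of the list in both assays. Its RPF level was 50.2 and 37.7 CPM in the Anaef pools, below 68.7 and 73.8 CPM in the WT pools (log2 fold change -0.69, SE 0.20, unadjusted p = 0.0111, edgeR adjusted p = 0.344). Hipk1, a kinase of transcriptional regulators, had a log2 fold change of -0.30 in RPF (SE 0.16, unadjusted p = 0.110).

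Among the adaptors, Sh2d2a (TSAd), a partner of Lck, had 418 to 554 CPM in Anaef total RNA, above the 327 to 417 CPM of WT (log2 fold change 0.39, SE 0.15, unadjusted p = 0.0229, edgeR adjusted p = 0.840). Sh3bp2 (3BP2), which binds Zap70, Syk and phospholipases, had 5.98 to 18.6 CPM in Anaef and 5.30 to 9.60 CPM in WT, with overlap (log2 fold change 0.97, SE 0.37, unadjusted p = 0.0240, edgeR adjusted p = 0.840). In RPF, Sh2d1a (SAP), which links SLAM receptors to Fyn, had 158 and 171 CPM in the Anaef pools, above 116 and 106 CPM in the WT pools. Its log2 fold change was 0.56 (SE 0.15, unadjusted p = 0.00709, edgeR adjusted p = 0.344), and DESeq2 called it at an adjusted p of 0.0242. Pag1 (Cbp), the membrane anchor that holds Csk near its substrates, had 60.8 and 53.0 CPM in Anaef, below 89.9 and 80.6 CPM in WT (log2 fold change -0.58, SE 0.17, unadjusted p = 0.0119, edgeR adjusted p = 0.344). Csk, its partner, was below 0 in RPF too, as were 49.2% of tested genes, and a link between these values was not tested. Fyb (ADAP) and Grap, the adaptors with the highest levels, averaged 92.4 ± 11.4 and 95.3 ± 23.8 CPM per kb in Anaef total RNA and 77.7 ± 3.61 and 67.6 ± 19.0 in WT (SD, n = 4 each).

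Of the inhibitors, Acp1, a low-molecular-weight tyrosine phosphatase, had 38.2 to 62.6 CPM in Anaef total RNA, above the 23.7 to 32.8 CPM of WT (log2 fold change 0.66, SE 0.21, unadjusted p = 0.00974, edgeR adjusted p = 0.761). Pstpip1, which joins phosphatases of the PEST class to the cytoskeleton, had 67.1 and 50.2 CPM in the Anaef pools, below 82.1 and 96.9 CPM in the WT pools (log2 fold change -0.60, SE 0.20, unadjusted p = 0.0214, edgeR adjusted p = 0.366). Ptpra, a receptor phosphatase that acts on Src-family kinases, had log2 fold changes of -0.26 in total RNA (unadjusted p = 0.117) and -0.32 in RPF (unadjusted p = 0.0875). Ptpn6 (SHP-1) and Ptpn22, which dephosphorylate Lck and Zap70, had the highest levels, at 30.1 ± 6.81 and 29.6 ± 7.31 CPM per kb in Anaef total RNA and 33.2 ± 1.97 and 28.0 ± 4.52 in WT (SD, n = 4 each).

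**Figure D5:**
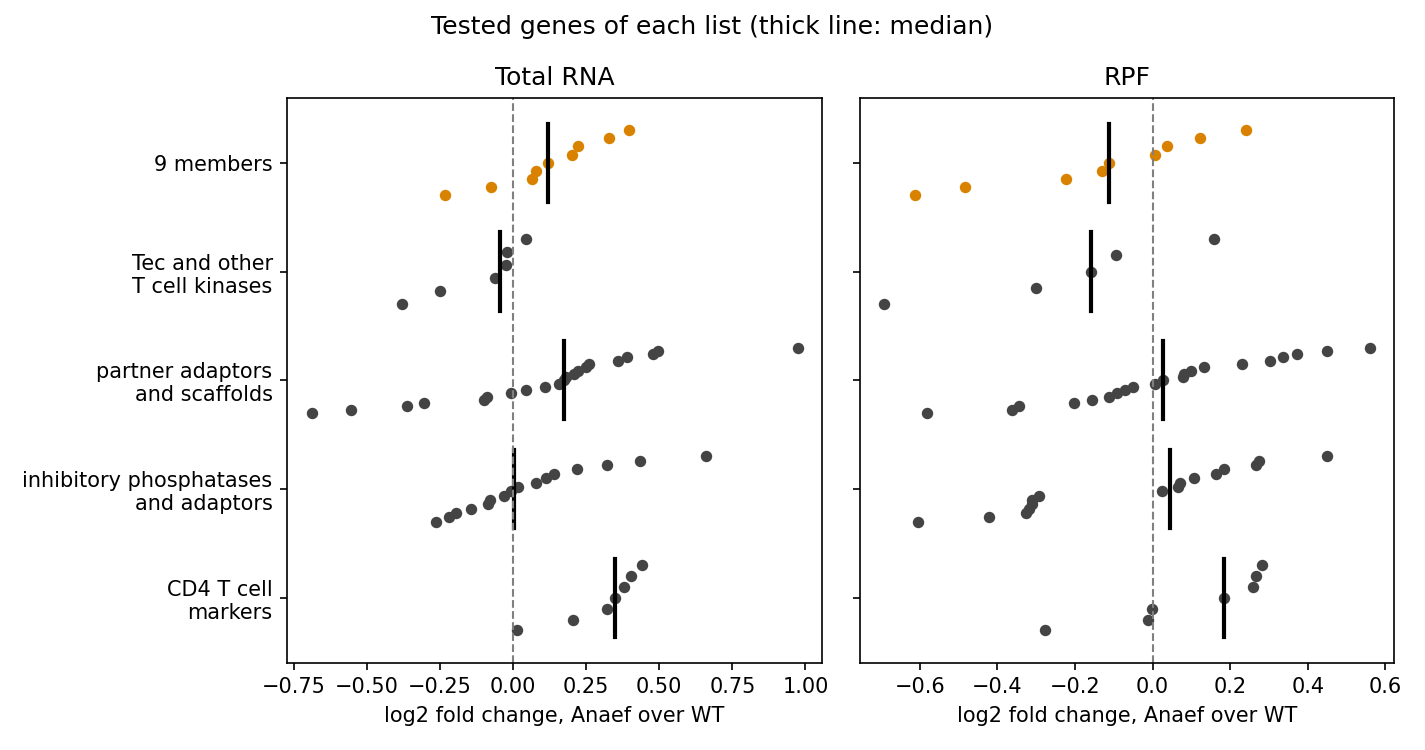
Log2 fold changes of Anaef over WT for the tested genes of each list in total RNA (left) and RPF (right), each point 1 gene, the 9 members in orange and thick lines marking medians. The members centre at 0.12 and -0.11 and the 7 CD4 T cell markers at 0.35 in total RNA.

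For each member the protein-coding gene with the most similar profile was found over the 12 libraries, as the smallest root mean square difference of log2 CPM after each gene had been centred within each assay. Among 5205 genes with at least 10 CPM on average in both assays, Pds5a was nearest to Ptprc (0.045), Aff1 to Lcp2 (0.0671), Sema4d to Lck (0.0904), Sbf1 to Csk (0.0914), Xpo6 to Plcg1 (0.0953) and Ets1 to Fyn (0.0985). Atxn2 was nearest to Zap70 (0.119), Vamp2 to Themis (0.124) and Smad3 to Lat (0.144). No member was nearest to another. The closest pair of members was Lck and Lcp2, at 0.122, with Lcp2 at rank 21 for Lck and Lck at rank 59 for Lcp2. The libraries are shared by all genes, so these distances are a description.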

How the data were processed

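The authors deposited raw read counts per gene in 1 table, for 8 total RNA libraries and 4 RPF libraries, those of RPF after masking. Alignment to GRCm38 with TopHat 1.4.1 is named in the submitters' processing notes. How reads were counted, on which annotation and strand, and which features were masked is not stated in the sources used here. Per the labels' protocols, total RNA was polyadenylated RNA taken on beads from a small aliquot of cells and read as single ends of 50 bases. RPF came from the remaining cells after 1 minute of cycloheximide, micrococcal nuclease and a sucrose cushion. The 2 assays used different library kits.

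Of 45669 rows, 44595 were matched to GENCODE M21, 263 joined several identifiers and 811 had no match. Each comparison was fitted to the counts with edgeR 4.0.16 under R 4.3.3 (TMM scaling, filterByExpr, quasi-likelihood F test, Benjamini-Hochberg adjustment over all genes tested at 0.05). SE were derived from the F statistic. Total RNA was fitted on 8 libraries, RPF on 4, the interaction on 12, and each within-genotype ratio on 6. The fits were tested on simulated data. CPM use TMM-scaled library sizes within each assay, and depth limits precision most in RPF. Alternatives were RLE size factors, DESeq2 1.42.0, limma-voom (limma 3.58.1), other filters, nuclear protein-coding genes only, a fit on all 12 libraries, and leaving out each library.

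The members and lists were chosen with earlier results of these data known. All members and Rasgrp1 are named, and from each pathway list the 2 genes with the smallest p in total RNA and in RPF and the 2 with the highest total RNA level per kb. Some others are named after their values were seen. A gene that the rule names is not reported here. Lime1 had only a joined row and was not tested.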

Additional observations from a re-analysis of the deposited data

Results flagged for a closer look

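In 20 groups of 4 total RNA libraries (the members and Rasgrp1 in each genotype), 3 held a library whose gap to the nearest other, as a share of the group's range, was above Dixon's critical value at the 95% level. Chance flags about 1 group in 20. Ptprc had 3935 CPM in Anaef replicate 6, where the other Anaef libraries had 2780 to 2916 CPM (gap share 0.883), and that library also had the highest CD4 marker sum, at 4530 CPM. Plcg1 had 203 CPM in Anaef replicate 7, where the others had 161 to 167 CPM (gap share 0.848). Rasgrp1 had 610 CPM in WT replicate 3, where the others had 453 to 479 CPM (gap share 0.831), and that library was the shallowest, with 15326842 counts.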

How the results depend on the processing

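No paired analysis was possible because the groups share no replicate numbers. Total RNA came from an aliquot of cells and RPF from the remaining cells, so libraries of both assays may share samples. The interaction and the ratio tests within each genotype treat them as independent. Of the counts of genes called, 4 in total RNA became 120 with DESeq2, 2 with limma-voom, 0 with nuclear protein-coding genes only, 2 without WT replicate 3 and Anaef replicate 6 (chosen after seeing the data) and 0 to 3 when each library was left out. The 0 in RPF became 197 with DESeq2, 514 with no filter, 6 with nuclear protein-coding genes and 0 to 211 with each pool left out, where the lone pool is assumed to vary like the other group; 211 were called without pool 3B. Members called in RPF went to 1 (Fyn) with DESeq2 and to 1 with no filter. The 0 of the interaction became 10 with DESeq2 and 0 to 1 with each library left out. Within Anaef the 12106 became 7909 with limma-voom and 6717 with nuclear protein-coding genes, and within WT the 13157 became 7740 with those genes, where fewer genes were tested; this moved the median of all tested ratios by 1.35 in Anaef and 1.32 in WT. Signs turned only for uncalled members. Some of these started near 0, but Themis started at 0.24 in RPF and -0.17 in the interaction. In RPF Zap70 was at -0.0119 with no filter, -0.00213 with nuclear protein-coding genes and -0.0063 on all 12 libraries, and in the interaction Ptprc was at 0.0907 without WT replicate 3 and Anaef replicate 6. With each library left out, the ranges were -0.0254 to 0.184 for Fyn in total RNA; -0.117 to 0.12 for Zap70, -0.276 to 0.0262 for Lat and -0.0983 to 0.512 for Themis in RPF; -0.527 to 0.0891 for Themis in the interaction; and -0.0405 to 0.0752 for Lcp2 and -0.0229 to 0.158 for Ptprc within Anaef. Of single values, 724 kept direction and call, 16 turned sign, 4 gained and 10 lost a call. A further 20 levels per kb moved with the length or library size used. The cause was not tested. RPF depth limits what the pools can show.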

Other observations

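The pathway lists also differed in RPF per total RNA read. Of 21 partner adaptors tested, 11 passed higher and 3 lower in Anaef, and 13 higher and 2 lower in WT, where 16.4% and 50.8% of all tested genes passed higher and lower in Anaef and 19.6% and 54.4% in WT. Those shares include the many noncoding genes at the low end. Of 16 inhibitors, 5 passed higher and 8 lower in Anaef, and 6 higher and 6 lower in WT. Of 6 kinases, 1 passed higher and 4 lower in each genotype. Ptprcap, the CD45-associated protein, had a log2 ratio of 3.07 in Anaef (edgeR adjusted p = 0.000101) and 2.92 in WT (edgeR adjusted p = 0.000389), near that of Zap70. Sh2d1a was at 2.95 in Anaef and 2.90 in WT, whereas Sh2d2a was at -3.12 in Anaef and -2.55 in WT and Pag1 at -2.94 in Anaef and -2.41 in WT, all called by edgeR. Of the inhibitors, Dok1, an adaptor that recruits a Ras GTPase-activating protein, was at 3.14 in Anaef and 3.61 in WT, and Ptpn6 at 2.18 in Anaef and 2.01 in WT. The Dok1 ratios rest on few total RNA counts, 227 over the Anaef libraries and 142 over the WT libraries. These genes were chosen after their values were seen.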
